A study of Homo sapiens with 15 samples.

Results

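The 2 mature miRNAs cut from the arms of the miR-22 hairpin, hsa-miR-22-3p and hsa-miR-22-5p, were followed through all 5 conditions of the study. They are 2 of the 2418 miRNAs counted in the knockdown libraries and 2 of the 2189 counted in the RIP-seq libraries. The pair was chosen on its change after FTO siRNA, where the 3p arm had the lowest log2 fold change of all miRNAs tested, so its values in that comparison are given as a description and without a test. The rule of choice did not use the precipitation libraries, and these were tested. The pair was, however, picked with earlier results of these data known. The name under which the pair was chosen calls both arms lowest after knockdown, which holds for the 3p arm but not for the 5p arm, as the values below show.

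The cells were FTO1C1, FTO2D4 and FTO3C3, clonal T-Rex derivatives of the human embryonic kidney line HEK293, which were kept uninduced. For the knockdown, each clone received 10 nM of a mix of siRNAs against FTO, the demethylase of N6-methyladenosine (m6A), or of a scrambled siRNA, and small RNA was harvested at 48 h. For RIP-seq, small RNA of the untreated clones was sequenced as such (input), after precipitation with an anti-m6A antibody (m6A samples) or after precipitation with an IgG isotype control (IgG samples). Every group held 3 libraries, 1 per clone, so that n = 3 cell lines throughout and the spread is that between clones of the same parent line.

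Reads on miRNAs numbered between 1991317 and 3876806 in the knockdown libraries and between 186446 and 4973238 in the RIP-seq libraries, with the IgG sample of FTO3C3 the shallowest. Levels are given as reads per 1000000 miRNA reads (RPM), so that they depend on what else was counted. The entry miR-6080 alone accounted for 58.0% to 71.6% of all reads in the IgG libraries, from 41.3% to 47.8% in the m6A libraries and from 15.5% to 28.4% in the input. Of the HEK293 markers, miR-10a-5p, miR-10b-5p, miR-196a-5p and miR-196b-5p together held between 313762 and 425678 RPM with scrambled siRNA. The 6 blood cell markers held between 92.1 and 116 RPM there, the 2 of 4 muscle markers that were counted between 17.6 and 23.1 RPM and the liver marker miR-122-5p between 5.22 and 7.03 RPM. miR-22-3p is itself abundant in blood and muscle. The summed blood markers lay between 119 and 163 RPM with FTO siRNA, and none of the 6 was at 0 in a whole group.

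A miRNA hairpin yields 2 arms, of which usually 1 is retained in the silencing complex as the guide while the other is degraded. Bases 2 to 8 of the guide, the seed, pair with target mRNAs. In miR-22 the 3p arm is the guide, is conserved among vertebrates and is known for repressing TET2, a DNA demethylase of the same dioxygenase superfamily as FTO. The 5p arm is the passenger strand and its own targets are less well described.

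The mature sequences are shown because the results turn on the difference between these arms. They are RefSeq entries (GRCh38.p14), 5′ to 3′, with the seed in capitals.
hsa-miR-22-3p: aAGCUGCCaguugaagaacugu
hsa-miR-22-5p: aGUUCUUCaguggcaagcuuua

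The 3p arm lies at chr17:1713914-1713935 and the 5p arm at chr17:1713952-1713973, both on the minus strand. They belong to the 85-base gene MIR22 (chr17:1713903-1713987), which falls within the span of the lncRNA gene MIR22HG (chr17:1711504-1716210). Exons were not given in the annotation used here. Both arms have 22 bases. The longest perfectly complementary stretch covers 9 bases, bases 12 to 20 of the 3p arm and bases 1 to 9 of the 5p arm, so that it takes in the whole seed of the 5p arm and none of the seed of the 3p arm. No other mature miRNA of the RefSeq table has either seed at its own bases 2 to 8. Seeds at other positions were not searched for. The longest run shared with any other miRNA of the RefSeq table had 10 bases for each arm. It was shared with miR-4511 for the 3p arm and with miR-146a-3p and miR-6838-5p for the 5p arm. The counting by the authors required the exact matches of a read to cover at least 17 bases.

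Methylation is of adenosine, and the 3p arm has 7 adenosines and the 5p arm 5. The median of the 1923 miRNAs of the RIP-seq counts with a RefSeq sequence was 5. The letters AAC and GAC, cores of the m6A consensus of mRNA, were searched on the RNA strand. The 3p arm holds AAC once, starting at base 17, and the 5p arm holds neither. Of the 1923 sequences, 39.2% hold AAC or GAC. This is a description of the letters, not a site, and the data do not place m6A within a miRNA.

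The 3p arm was among the most abundant miRNAs of these cells. With scrambled siRNA it had 6489 RPM in FTO1C1, 8808 in FTO2D4 and 7294 in FTO3C3, from 23605, 21703 and 14524 reads, and ranked between 19 and 24 of 2418. In the input of untreated cells it had 11491, 17701 and 10646 RPM and ranked between 7 and 9 of 2189. The m6A samples held 5020.2, 4720.5 and 5788 RPM, the FTO siRNA libraries 1719, 2507 and 2187 RPM, and the IgG samples 135, 149.996 and 150.2 RPM, always in the order FTO1C1, FTO2D4 and FTO3C3.

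Ordered by their means, the levels of miR-22-3p were 13279 ± 3852 RPM (SD, n = 3) in the input, 7530.2 ± 1178 with scrambled siRNA, 5176 ± 551 in the m6A samples, 2138 ± 396 with FTO siRNA and 145 ± 8.78 in the IgG samples. No neighbours in this order overlapped between libraries. The order crosses 2 count tables from separate experiments, and was tested only within a table.

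The 5p arm was scarce, and its levels rest on few reads. It had 15.1, 16.6 and 13.6 RPM with scrambled siRNA, from 55, 41 and 27 reads. With FTO siRNA it had 11.2, 14.7 and 17.8 RPM, from 39, 51 and 69 reads. For the lowest of these, 11.2 RPM in FTO1C1, the exact 95% Poisson interval of the count allows 7.97 to 15.3 RPM, and as for all such intervals here it covers counting error only.

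In the RIP-seq libraries the 5p arm had 78.8, 54.1 and 105 RPM in the input, from 111, 79 and 157 reads. The m6A samples held 21.1, 38.9 and 29.8 RPM, from 12, 53 and 148 reads. The IgG samples held 60.7, 58.5 and 80.5 RPM, from 45, 46 and 15 reads. Its mean levels were 79.2 ± 25.3 RPM (SD, n = 3) in the input, 66.5 ± 12.1 in the IgG samples, 29.9 ± 8.91 in the m6A samples, 15.1 ± 1.54 with scrambled siRNA and 14.6 ± 3.30 with FTO siRNA. Input and IgG overlapped between libraries, and so did scrambled and FTO siRNA, whereas the m6A samples lay between these pairs and overlapped with neither.

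**Figure D1:**
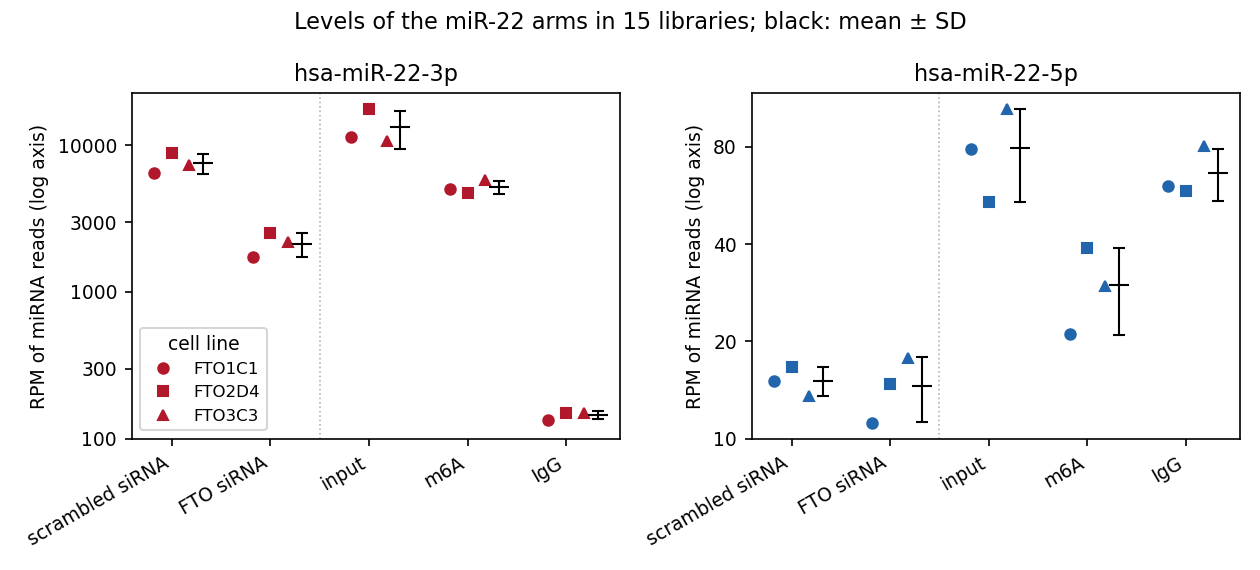
RPM of hsa-miR-22-3p (left) and hsa-miR-22-5p (right) on a log axis in each of the 15 libraries, with a symbol per cell line and the mean ± SD of each group in black; the dotted line parts the knockdown from the RIP-seq libraries. The 3p arm spans 135 RPM in an IgG sample to 17701 RPM in an input, and the 5p arm 11.2 to 105 RPM.

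Set against each other within a library, the arms give a measure that does not depend on the total. With scrambled siRNA there were 429, 529 and 538 reads of the 3p arm for each read of the 5p arm in FTO1C1, FTO2D4 and FTO3C3. With FTO siRNA the ratio was 153, 170.2 and 123. In the input it was 146, 327 and 102, in the m6A samples 238, 121 and 194 and in the IgG samples 2.22, 2.57 and 1.87. The 5p arm thus made up between 28.05% and 34.9% of the miR-22 reads of the IgG samples and less than 1% in every other library. The interval is widest for the IgG sample of FTO3C3, where 15 of 43 reads were 5p, or 34.9% (exact 95% binomial interval 21.0% to 50.9%).

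**Figure D2:**
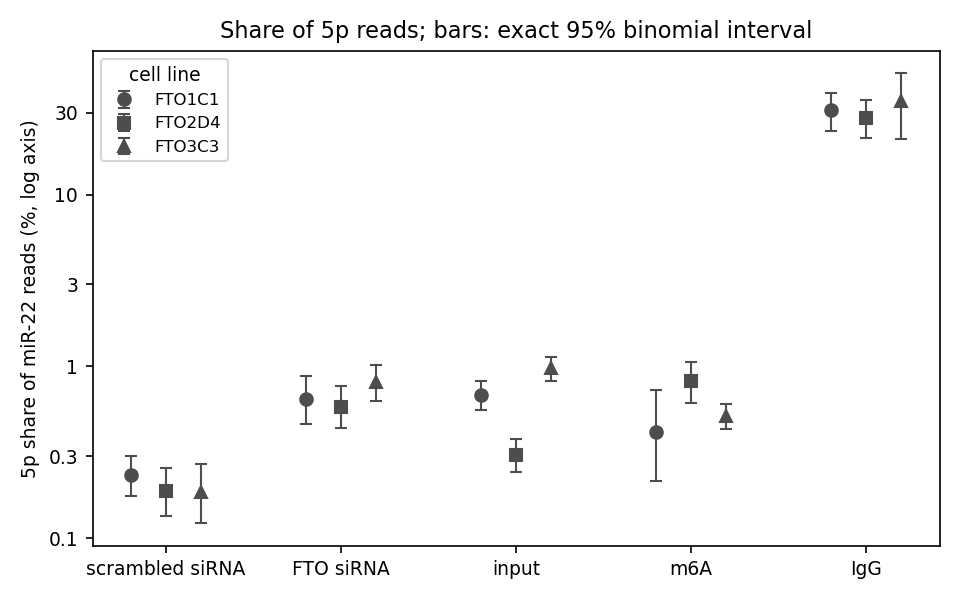
Share of 5p reads among all miR-22 reads of a library, in percent on a log axis, for the 3 cell lines of each condition, with exact 95% binomial intervals as bars. The IgG samples lie between 28.05% and 34.9%, the scrambled siRNA libraries between 0.186% and 0.232% and the FTO siRNA libraries between 0.584% and 0.807%.

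After FTO knockdown the level of the 3p arm was lower in all 3 cell lines and that of the 5p arm had no common direction. For miR-22-3p, FTO siRNA left 0.265, 0.285 and 0.300 of the level with scrambled siRNA in FTO1C1, FTO2D4 and FTO3C3, on average 3.54-fold lower. The highest FTO siRNA library, at 2507 RPM, lay below the lowest scrambled siRNA library, at 6489 RPM. Of the 2374 miRNAs tested, 1.94% were lower with no overlap between the groups. The rank of miR-22-3p moved from between 19 and 24 to between 46 and 65. For miR-22-5p the ratio was 0.741, 0.885 and 1.31, with a mean of 0.980 ± 0.297 (SD, n = 3), and the groups overlapped.

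On the log2 scale of the fit, the fold change of miR-22-3p was -1.82 (standard error 0.13) and that of miR-22-5p -0.08 (standard error 0.23). The first ranked lowest of 2374 and the other rank 325 from the lowest, where the median was 0.29. Next to miR-22-3p among the miRNAs that reached 15 RPM in each library with scrambled siRNA came miR-7-5p at -1.58, miR-196a-5p at -1.54 and miR-4755-3p at -1.53. Of these, miR-4755-3p varied most, between 633 and 3519 RPM with scrambled siRNA. The miRNAs next to miR-22-3p in level before knockdown were miR-378a-3p, miR-192-5p, miR-191-5p and miR-4454, with means between 6282 and 7813 RPM. Their log2 fold changes were -0.27, -0.24, -0.27 and 0.22. Among the 77 tested miRNAs that reached 1000 RPM in each library with scrambled siRNA the median was -0.05. Cutoffs on the scrambled siRNA libraries use the denominator of the ratio, which by itself favours lower values.

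**Figure D3:**
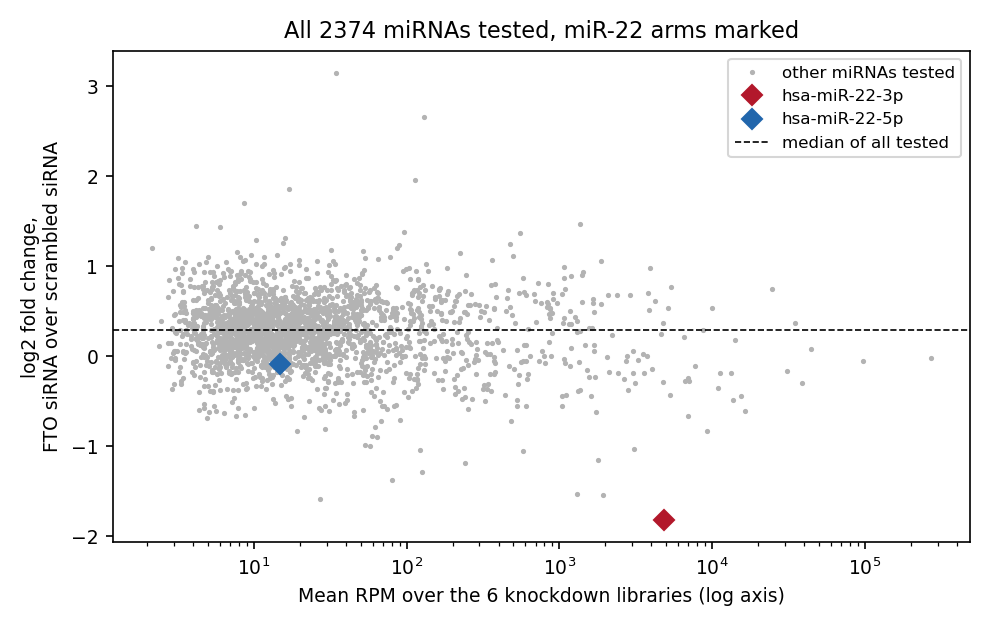
log2 fold change of FTO siRNA over scrambled siRNA against the mean RPM of the 6 knockdown libraries (log axis) for the 2374 miRNAs tested, with hsa-miR-22-3p in red and hsa-miR-22-5p in blue. The 3p arm is the lowest point at -1.82, whereas the 5p arm at -0.08 lies among the bulk of the points, below the dashed median of 0.29.

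The log2 ratio of 3p to 5p reads was 8.94 ± 0.18 (SD, n = 3) with scrambled siRNA and 7.19 ± 0.24 with FTO siRNA. By clone, in the order FTO1C1, FTO2D4 and FTO3C3, the differences were -1.49, -1.63 and -2.11. miR-22 itself missed the cutoff of a mean of 15 RPM for each arm that was set for a list of hairpins, since its 5p arm was too scarce. Of the 222 hairpins that passed, the lowest mean change of this ratio was that of miR-4755, at -1.47, against -1.75 for miR-22. The sign of this change depends on which arm changed and in which direction, since a higher 3p arm and a lower 5p arm both raise it. The highest changes were 1.67 for miR-221, 1.52 for miR-196a and 1.47 for miR-30a. The median over the 222 was 0.05.

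Other miRNAs known to repress TET2 were compared from a list chosen with earlier results of these data known. All 7 were tested after knockdown, and the quasi-likelihood test of edgeR called 1 higher and 0 lower (adjusted p under 0.05), with a median log2 fold change of -0.17. Of all 2374 miRNAs, 4.97% were called higher and 0.505% lower. The member called was miR-26b-5p (0.68, adjusted p = 0.0347 by edgeR). No member of the list was called with TMM factors, with DESeq2, when the block for the cell line was dropped, or when FTO1C1 or FTO3C3 was left out.

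The calls after knockdown shift with the scale. TMM factors, which bring the median of all miRNAs to -0.00035, gave 21 higher and 34 lower calls in place of 118 and 12. Leaving out FTO1C1 brought the calls of edgeR to 0, while 327 miRNAs had an unadjusted p under 0.05. Dropping the block for the cell line brought them to 41.

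Precipitation with the anti-m6A antibody was compared with IgG to ask which miRNAs the antibody retains. The arms moved in opposite directions. miR-22-3p was 37.2-fold, 31.5-fold and 38.5-fold higher in the m6A samples than in the IgG samples of FTO1C1, FTO2D4 and FTO3C3, a mean of 35.7 ± 3.76 (SD, n = 3). On the log2 scale it was higher by 5.15 with a standard error of 0.30 (edgeR, adjusted p = 3.96e-06). Every m6A library was above every IgG library. Of the 2054 miRNAs tested, 38.6% were called higher, and miR-22-3p ranked 56 from the highest.

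miR-22-5p was lower in the m6A samples than in the IgG samples, with ratios of 0.347, 0.665 and 0.370. The fitted log2 fold change was -1.14 with a standard error of 0.37 (edgeR, adjusted p = 0.0354), against a median of 0.83 over all miRNAs tested. A call in this direction was rare, at 1.27% of the miRNAs tested, and the 5p arm ranked 13 from the lowest. The call was lost without FTO1C1 (-0.98, adjusted p = 0.138 by edgeR) and without FTO3C3 (-0.996, adjusted p = 0.141 by edgeR). With TMM factors, under which the median of all miRNAs was 0.06 and 453 were called higher and 302 lower in place of 792 and 26, the log2 fold changes were 4.40 for the 3p arm and -1.89 for the 5p arm.

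**Figure D4:**
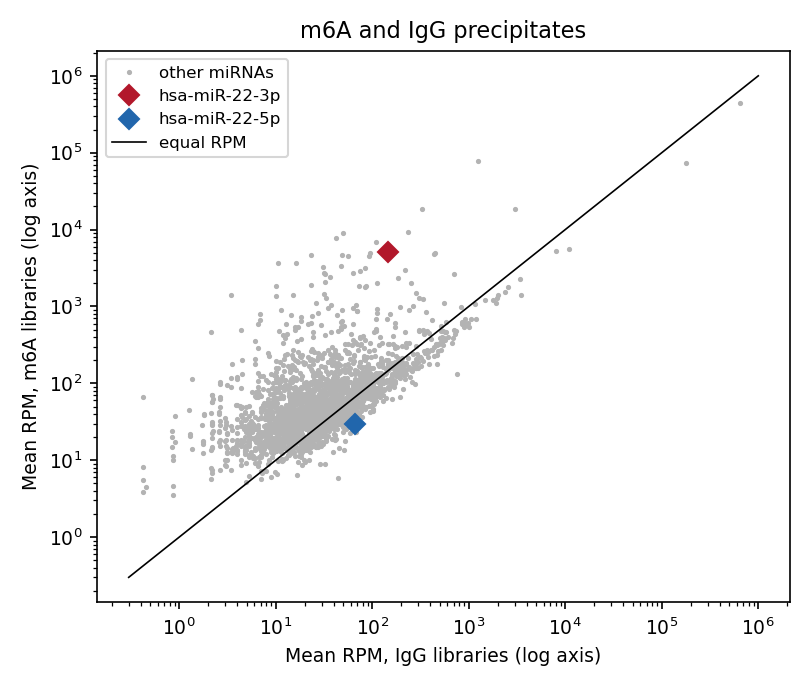
Mean RPM of each miRNA in the m6A samples against the IgG samples, both on log axes, with the line of equal RPM; miRNAs at 0 in either group are not drawn. hsa-miR-22-3p (red) lies far above the line at 145 and 5176 RPM, and hsa-miR-22-5p (blue) below it at 66.5 and 29.9 RPM.

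The same m6A samples, and the IgG samples, were also set against the input. This compares shares of the reads before and after precipitation, and no library of unbound RNA was made available. The comparisons share libraries and are given side by side. Relative to the input, both arms were lower in the m6A samples. For miR-22-3p the ratio was 0.437, 0.267 and 0.544 and the log2 fold change -1.33 with a standard error of 0.43 (edgeR, adjusted p = 0.00643). For miR-22-5p it was 0.267, 0.719 and 0.284 and the log2 fold change -1.38 with a standard error of 0.43 (edgeR, adjusted p = 0.00498). Of the 2174 miRNAs tested, 66.8% were called higher and 10.5% lower, and the median was 1.65. miRNAs abundant in the input were lower more widely. Among the 57 with at least 1000 RPM in all input libraries the median was -1.69, and miR-22-3p ranked 24 from the highest. This cutoff was set on the input, the denominator of the ratio, which by itself favours lower ratios.

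These calls against the input depend on the denominator. With totals that leave out miR-6080, the log2 fold changes were -0.86 for the 3p arm (adjusted p = 0.0977 by edgeR) and -0.92 for the 5p arm (adjusted p = 0.068 by edgeR). Without FTO2D4, that of the 3p arm was -1.04 (adjusted p = 0.074 by edgeR). With TMM factors the median was 0.10, the calls were 575 higher and 614 lower in place of 1452 and 229, and the arms had -2.87 and -2.94.

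In the IgG samples the 3p arm was 91.4-fold lower than in the input on average, with ratios of 0.0117, 0.00847 and 0.0141. The fitted log2 fold change was -6.49 with a standard error of 0.46 (edgeR, adjusted p = 5.32e-41). Of the 1941 miRNAs tested, 36.8% were called higher and 21.8% lower, or 559 higher and 586 lower with TMM factors in place of 714 and 423. miRNAs abundant in the input were again lower more widely. Among the 57 with at least 1000 RPM in all input libraries the median was -5.68, and miR-22-3p ranked 20 from the lowest. Here too the cutoff was set on the denominator of the ratio, which by itself favours lower ratios. For the 5p arm the ratio was 0.770, 1.08 and 0.769 and the log2 fold change -0.21 with a standard error of 0.47 (edgeR, adjusted p = 0.716). A difference of the 5p arm between IgG and input was therefore not detected, and its sign turned with totals that leave out miR-6080, where the log2 fold change was 0.93 (adjusted p = 0.0428 by edgeR).

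**Figure D5:**
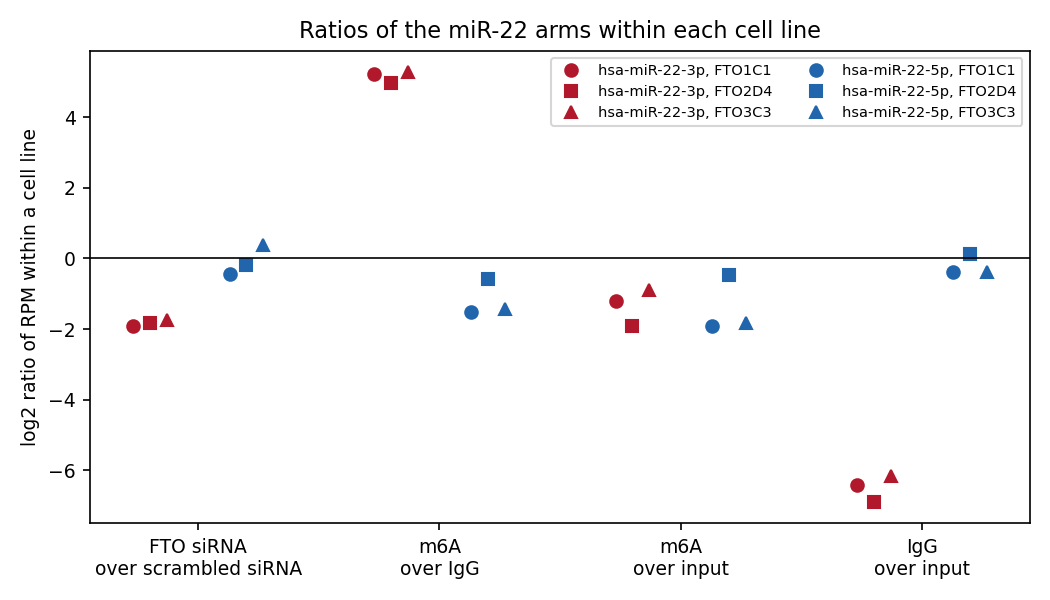
log2 ratio of RPM within each cell line for 4 comparisons, with hsa-miR-22-3p in red, hsa-miR-22-5p in blue and a symbol per cell line; the line at 0 marks equal RPM. The arms part after FTO siRNA, in m6A over IgG and in IgG over input, and overlap in m6A over input.

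The log2 ratio of 3p to 5p reads was 7.45 ± 0.48 (SD, n = 3) in the m6A samples, 7.40 ± 0.86 in the input and 1.12 ± 0.24 in the IgG samples. The m6A samples exceeded the IgG samples by 6.69, 5.56 and 6.72 in the 3 clones (exact two-sided permutation test, p = 0.10, the smallest that 3 against 3 libraries allow). The IgG samples differed from the input by -6.04, -6.99 and -5.79 (exact two-sided permutation test, p = 0.10, again the smallest possible). Between m6A samples and input the mean difference was 0.05, and the clones gave 0.66, -1.43 and 0.93 (exact two-sided permutation test, p = 1). The SD between the clones, 1.29, exceeded this mean.

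Of 443 hairpins with a mean of at least 15 RPM for both arms in the RIP-seq counts, miR-22 ranked 3 from the highest in the change of this ratio between IgG and m6A samples, and the median change was -0.41. By size regardless of sign, 8 of the 443 changed more than miR-22 in that comparison, with miR-136 at -8.27, and 434 changed more between m6A samples and input. Between IgG samples and input miR-22 ranked 9 from the lowest, 21 changed more in size, and the median was 0.00365.

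The miRNAs with the most similar levels across libraries were named by Pearson's correlation of log2(RPM + 1), as a description, since the points share libraries, totals and groups. Over the 6 knockdown libraries and 362 miRNAs with a mean of at least 100 RPM, those most like miR-22-3p were miR-215-5p (r = 0.977), miR-769-5p (r = 0.963) and miR-27b-3p (r = 0.952). Their log2 fold changes after knockdown were -0.72, -1.05 and -0.83. Over the 9 RIP-seq libraries and 448 miRNAs, those most like it were miR-548k (r = 0.997), which had no read in an IgG sample, miR-10b-5p (r = 0.993) and miR-130b-3p (r = 0.991). The last 2 had log2 fold changes of 5.88 and 4.88 for m6A over IgG and of -1.002 and -0.92 for m6A over input, against 5.15 and -1.33 for miR-22-3p.

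For miR-22-5p the likeness was weaker in the knockdown libraries, where miR-146b-5p (r = 0.846), miR-99b-5p (r = 0.844) and miR-1285-3p (r = 0.808) came first of 363. In the RIP-seq libraries miR-212-3p (r = 0.917), miR-1537-3p (r = 0.915) and miR-7-1-3p (r = 0.906) came first of 449. Like the 5p arm, miR-212-3p was lower in the m6A samples than in IgG, at a log2 fold change of -1.29 (adjusted p = 0.0207 by edgeR), and little different between IgG and input, at -0.09 (adjusted p = 0.847 by edgeR). miR-1537-3p and miR-7-1-3p had -0.85 and -0.70 for m6A over IgG and did not pass the test.

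Of the miRNAs known to repress TET2, 5 were tested for m6A over IgG, 3 were higher and 0 lower, and the median was 1.07 against 0.83 over all miRNAs, of which 38.6% were called higher and 1.27% lower. The higher were miR-26a-5p (3.93), miR-101-3p (2.94) and miR-26b-5p (1.07), against 5.15 for miR-22-3p. With TMM factors 2 of the 5 were higher and 1 lower. Against the input 6 of 7 were lower and 0 higher, with a median of -2.29, where 10.5% of all miRNAs were lower and their median was 1.65. With TMM factors and with DESeq2 it was 7 of 7. In IgG against input 6 of 7 were lower and 0 higher, with a median of -3.48, where 21.8% of all miRNAs were lower and their median was 0.49. Totals without miR-6080 gave 5 lower and 1 higher in that comparison. The list was not matched to other miRNAs by level. Among miRNAs with at least 15 RPM in all input libraries, the median was 0.44 in m6A over input and -0.715 in IgG over input. With at least 1000 RPM there, these medians were -1.69 and -5.68. Such cutoffs use the denominator, so whether the list differs from miRNAs of like level was not tested.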

How the data were processed

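Raw counts were deposited by the authors for each mature miRNA, in 1 table for the knockdown and 1 for the RIP-seq libraries. According to their methods, adapters were removed with cutadapt (also listed in the submitters' processing notes), reads of 16 to 28 bp were kept and matched to miRBase release 20 by maximal exact matches (7 bases or longer, 17 bases covered in all), and entries of identical sequence were collapsed. No genome alignment was made.

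From the counts, RPM of all miRNA reads were computed. Differences were tested with edgeR 4.0.16 (quasi-likelihood test, filterByExpr at a minimum of 10 reads, the column total as library size, cell line as a block, R 4.3.3) over all miRNAs of the 6 libraries compared, with Benjamini-Hochberg adjustment at 0.05. The code was tested on simulated counts. The arm ratio was log2((3p + 0.5)/(5p + 0.5)), tested with scipy 1.17.1. The replicates are 3 clones of 1 parent line. edgeR shares its estimate of the spread across all miRNAs tested, so its p-values do not rest on the spread of the given miRNA alone.

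Libraries are paired by the clone that their labels name. Their deviations from the group means correlated between 0.225 and 0.334 in the knockdown and between -0.0782 and 0.0692 in the RIP-seq comparisons. No library was a copy of another of its group (lowest chi-square per degree of freedom 5.22), and libraries of different groups were not compared in this way.

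Named miRNAs were the members, the 3 with the next lowest fold changes after knockdown, the neighbours in level, the 3 most alike per arm and table, and the list members. Members and lists were chosen with earlier results of these data known, and 1 further list is not reported here. Alternatives were TMM factors, DESeq2 1.42.0, no filter, no block, totals without miR-6080, 1 fit over all 9 RIP-seq libraries, a pseudocount of 3 reads, and each cell line left out. Totals without miR-10a-5p and miR-6080 were added after seeing the data. FTO mRNA and the siRNA reads were not analysed here.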

Additional observations from a re-analysis of the deposited data

How the results depend on the processing

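In m6A over IgG both arms kept their direction under every alternative run, and so did the call of miR-22-3p. That of miR-22-5p was lost without FTO1C1 and without FTO3C3, with log2 fold changes from -1.47 to -0.98 when a cell line was left out. The log2 fold change of miR-22-3p after knockdown was -2.11 with TMM factors and -2.12 with DESeq2, which shift all miRNAs. In m6A over input, totals without miR-6080 gave -0.86 for the 3p arm and -0.92 for the 5p arm, and leaving out a cell line gave -1.55 to -1.04 for the 3p arm. In IgG over input, those totals turned the 5p arm to 0.93. The difference of the arm ratio between m6A and input, 0.05 on average, turned to -0.032 with a pseudocount of 3 reads and ranged from -0.39 to 0.80 with a cell line left out. The other arm ratios kept their direction, and in the paired test with the replicate block, m6A exceeded IgG by 6.32 (exact sign-flip test, p = 0.25, the smallest possible). In all miRNAs, the 130 calls after knockdown became 55 with TMM factors, 41 without the block and 0 to 201 with a cell line left out, those for m6A over IgG 470 to 730 with a cell line left out, in place of 818, and those for m6A over input 1074 with DESeq2, in place of 1681. Removing the block changed no call of the arms. With totals that also leave out miR-10a-5p, chosen after seeing the data, the mean log2 ratio within lines for miR-22-3p was 4.69 in m6A over IgG and -5.60 in IgG over input. The causes of these shifts were not tested beyond the scale that each setting sets. Depth limits the 5p arm, with 12 reads in its lowest m6A library and 15 in its lowest IgG library.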

Other observations

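The untreated input and the scrambled siRNA libraries, which no test compared, differed in both arms without overlap. miR-22-5p had between 54.1 and 105 RPM in the input and between 13.6 and 16.6 RPM with scrambled siRNA, while miR-22-3p had between 10646 and 17701 RPM and between 6489 and 8808 RPM. The ratio of 3p to 5p reads in the FTO siRNA libraries, 123 to 170.2, lay within the range of the untreated input, 102 to 327, and below that of the scrambled siRNA libraries, 429 to 538. These are libraries of separate experiments and transfected against untreated cells, and whether the experiment or the transfection sets these values cannot be told apart.

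miR-212-3p, which was most like the 5p arm across the RIP-seq libraries, showed the same kind of gap between the experiments, with a mean of 4004 RPM in the input and 21.1 RPM with scrambled siRNA. miR-1537-3p had 455 and 8.75 RPM and miR-7-1-3p 359 and 30.7 RPM.

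The 6 blood cell markers did not move together. Their summed level was between 486 and 914 RPM in the input and between 903 and 2084 RPM in the m6A samples, and most of it was miR-223-3p, a myeloid miRNA, with means of 584 RPM in the input, 1125 RPM in the m6A samples, 26.0 RPM in the IgG samples and 55.7 RPM with scrambled siRNA. The red cell miRNA miR-451a had 9.56 RPM in the input and 8.81 RPM with scrambled siRNA, and miR-150-5p, a lymphocyte miRNA, 4.29 and 2.72 RPM. For m6A over IgG, 3 of the 6 were called higher, where 38.6% of all miRNAs were. By log2 fold change these were miR-223-3p (5.20), miR-144-3p (2.84, adjusted p = 0.00167 by edgeR) and miR-142-5p (1.75, adjusted p = 0.0198 by edgeR). miR-142-3p was not called (1.06, adjusted p = 0.224 by edgeR). Nor were miR-451a (0.24, adjusted p = 0.663 by edgeR) and miR-150-5p (-0.19, adjusted p = 0.775 by edgeR). The mean level of miR-22-3p was 13279 RPM in the input and 5176 RPM in the m6A samples. These markers were chosen for mention after their values were seen, and the part of other cells in these values was not tested.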
